A study of Arabidopsis thaliana with 4 samples.

Results

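Transcript levels are described here for 55 *Arabidopsis* genes that make, move and break down glucosinolates, chosen by locus from a list that names the MYB regulators, chain elongation, core structure, side-chain modification, transporters, myrosinases and specifier proteins. All 55 were present among the 33664 features of the deposited tables. By branch, 27 belong to aliphatic glucosinolates, 17 to indole glucosinolates and 11 to steps shared by both.

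Glucosinolates are sulfur-rich defence compounds of cabbage relatives. Plants make an aliphatic kind mainly from methionine, whose carbon chain is first lengthened, and an indole kind from tryptophan. Both kinds pass through a core pathway that adds sulfur, glucose and sulfate, and MYB transcription factors switch on each branch. When tissue is damaged, myrosinases remove the glucose, and specifier proteins steer the unstable product to a nitrile instead of an isothiocyanate.

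The libraries were poly(A) RNA from whole 9-day-old seedlings of the ecotype Col-0, raised on MS plates in a cycle of 16 h light and 8 h dark at 23 ± 2 °C. Wild type and the mutant trm4b-4 had 2 libraries each, and the genotype field of the mutant spells it tm4b-4. *TRM4B* (AT2G22400) encodes an RNA 5-methylcytosine methyltransferase, and no source used here describes the lesion of this allele. Nothing in the labels tells whether same-genotype libraries are separate cultures, and p-values therefore reflect only library-to-library spread, possibly technical.

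The 4 libraries held 21931590 to 26390263 counted fragments. For pairs of libraries, the mean chi-square per feature was 1.74 within wild type, 1.59 within the mutant label and 28.6 to 30.5 across genotypes. *TRM4B* was at 29.7 and 28.9 FPKM (fragments per kilobase of transcript, scaled to library size) in wild type and at 86.3 and 87.1 FPKM in libraries labelled trm4b-4. The targeted transcript was therefore higher under the mutant label, so directions here follow the labels alone. Among all 19027 features tested, the median log2 change was 0.03.

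Of the 55 genes, 52 reached 1 FPKM in at least 2 libraries and were tested, and each of them did so with a library of both genotypes. In the libraries labelled trm4b-4, 9 were higher and 23 were lower (limma on log2(FPKM + 1), Benjamini-Hochberg adjusted p under 0.05), and 20 did not pass. Over all features tested, 34.3% passed, 19.2% higher and 15.1% lower. Well-expressed genes passed more often. At a mean of 10 FPKM or more, a level chosen after the values were seen, 44.5% passed, 24.3% higher and 20.2% lower, while 47 of the 55 genes stood at that level and held all 32 calls. The 2 genotypes did not overlap for 45 of the 52 genes, against 68.4% of all features tested.

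Sizes were modest. The median size over the 32 genes that passed was 0.26 (log2), and 29 of them stayed under a fold of 1.5. A test against a fold of 1.5, which 2.38% of all features passed, kept 3 genes, *MYB51*, *TGG2* and *MYB34*. The count of higher genes was 4 without wild type replicate 1, 5 without wild type replicate 2, 6 without trm4b-4 replicate 1 and 4 without trm4b-4 replicate 2. Levels spanned a wide range, from a mean of 1527 FPKM over the 4 libraries for the β-glucosidase gene *PYK10* to 0 for *AOP3*. In whole seedlings, fewer cells of a type and less RNA per cell cannot be told apart.

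**Figure D1:**
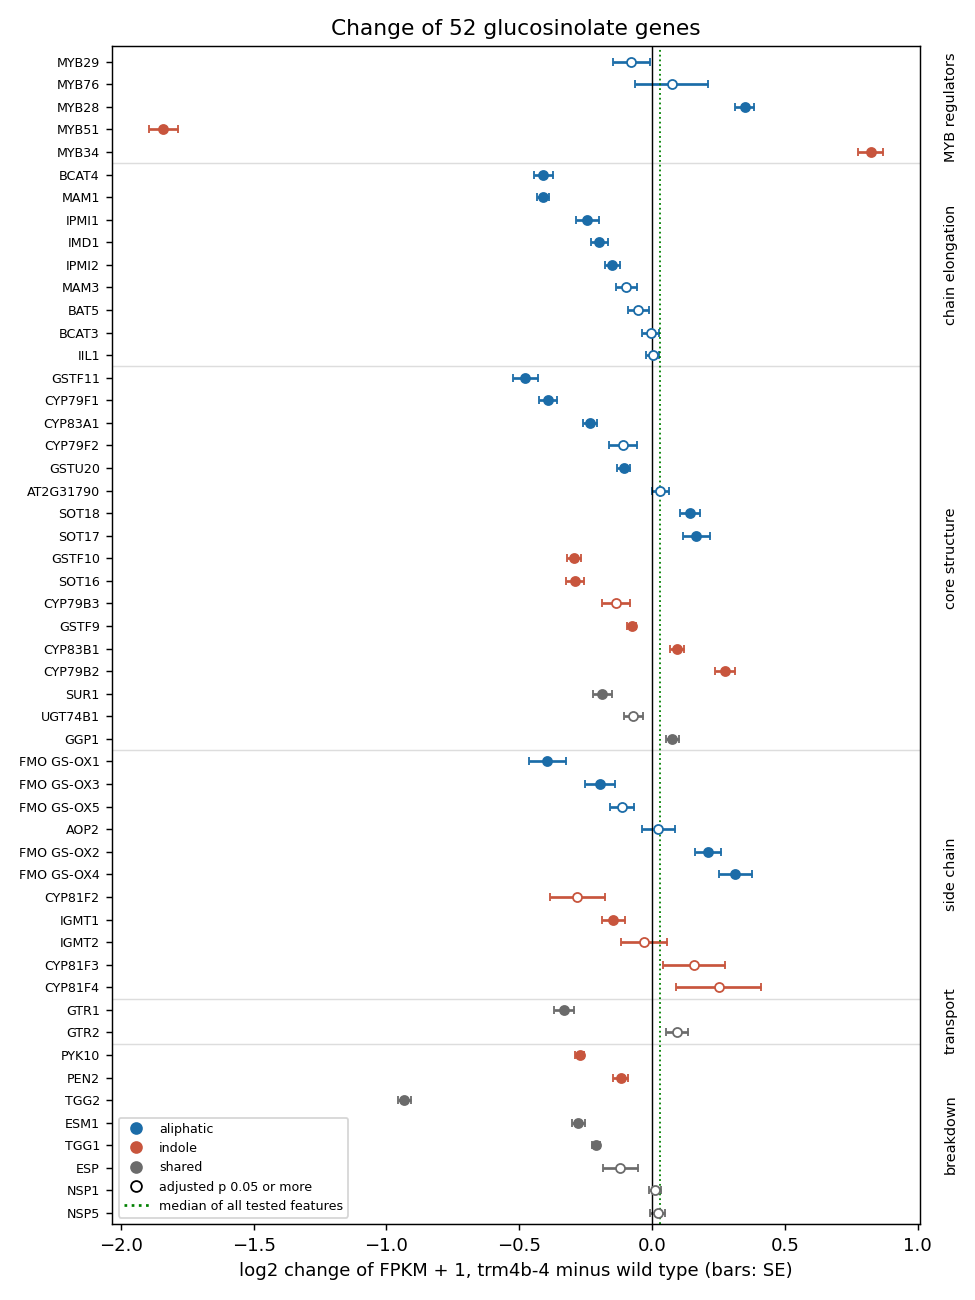
Log2 change of FPKM + 1 (trm4b-4 minus wild type, x axis) for the 52 tested genes, grouped by role, with bars for the SE and open points for genes that did not pass. *MYB51* stands farthest to the left at -1.84, and the 9 chain elongation genes lie between -0.41 and 0.00.

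Both branches held rises and falls. The counts by branch, role and list stand beside 19.2% higher and 15.1% lower among all features tested. At a mean of 10 FPKM or more these shares were 24.3% and 20.2%. In the aliphatic branch 5 of 26 tested genes rose and 11 fell, with a median log2 change of -0.10. In the indole branch 3 of 15 rose and 7 fell, with a median of -0.12, and of the 11 shared genes 1 rose and 5 fell. The branches hold different roles, so these counts do not compare like with like. All 9 chain elongation genes are aliphatic. The indole falls include the breakdown genes *PYK10* and *PEN2*, while *TGG1* and *TGG2* are counted as shared. The single shared rise, of *GGP1*, was lost without any 1 of the 4 libraries. The aliphatic count of rises was 2 without wild type replicate 1 or without trm4b-4 replicate 2, and 3 without wild type replicate 2. The indole count of falls was 4 without trm4b-4 replicate 2. Quantile normalization gave 3 rises and 4 falls in the indole branch, and removal of GC and length trends gave 2 and 9.

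The regulators held the largest fall of the 52 tested genes, of *MYB51*, and the largest rise, of *MYB34*. *MYB28* (AT5G61420), *MYB29* (AT5G07690) and *MYB76* (AT5G07700) encode the activators of aliphatic synthesis, and *MYB34* (AT5G60890), *MYB51* (AT1G18570) and *MYB122* (AT1G74080) those of indole synthesis. *MYB51* was at 33.2 and 32.3 FPKM in wild type and at 8.66 and 8.20 FPKM in libraries labelled trm4b-4, or 3.89 times lower (limma log2 change -1.84, SE 0.05, adjusted p = 1.19e-07). *MYB34* went the other way, from 15.3 and 15.9 to 28.3 and 28.6 FPKM, or 1.82 times higher (log2 change 0.82, SE 0.05, adjusted p = 6.54e-06). The rank of the pair was thus exchanged. *MYB51* had 2.16 and 2.03 times the level of *MYB34* in wild type and 0.306 and 0.287 times its level in libraries labelled trm4b-4. Such ratios are of FPKM, and below they are means ± SD of 2 libraries per genotype. *MYB122* was detected with only 12 to 17 fragments per library and was not tested. Of the summed FPKM of these 3 indole regulators, *MYB51* held 67.7% and 66.5% in wild type and 23.1% and 22.1% in the other libraries. The sum itself was 49.0 and 48.6 FPKM in wild type and 37.4 and 37.2 FPKM in libraries labelled trm4b-4.

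Among the aliphatic regulators, *MYB28* rose from 39.5 and 39.0 to 49.5 and 51.0 FPKM (log2 change 0.35, SE 0.04, adjusted p = 0.000186). It was the most abundant of the 3, with 69.7% and 69.0% of their summed FPKM in wild type and 73.4% and 76.9% in libraries labelled trm4b-4. *MYB29*, its close relative, was at 15.5 and 15.7 FPKM and at 15.7 and 13.8 FPKM, with overlapping libraries (adjusted p = 0.419). *MYB76* was low throughout, at 1.58 to 2.24 FPKM (adjusted p = 0.711). *MYB29* and *MYB76* had a log2 change of either sign, depending on which trm4b-4 library was left out.

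**Figure D2:**
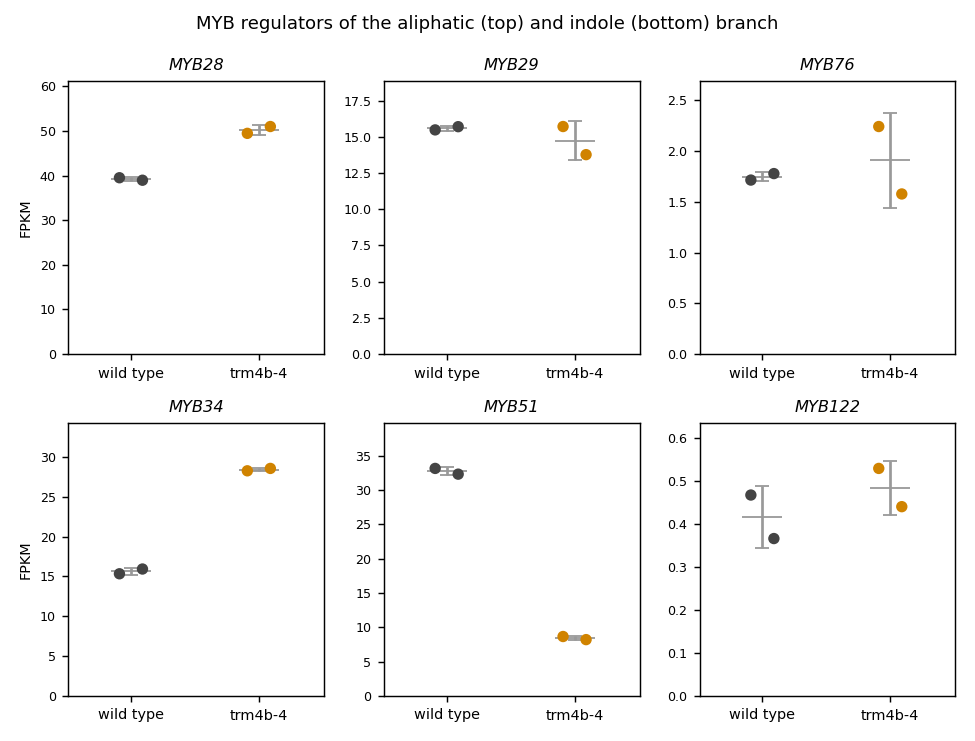
FPKM of the 6 MYB regulator genes in each library (points), with the mean and SD of the 2 libraries per genotype (grey). *MYB51* falls to 0.257 of its wild-type level, *MYB34* and *MYB28* rise, and the libraries of *MYB29*, *MYB76* and *MYB122* overlap.

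The 300 bases upstream of the annotated starts of *MYB51* and *MYB34* are given because these genes had the largest fall and the largest rise (RefSeq, TAIR10.1, gene strand, 5′ to 3′). They lie at chr1:6389099-6389398 on the plus strand and at chr5:24493991-24494290 on the plus strand. Neither window holds a G-box or an AC element, the motifs searched below, so nothing is in capitals.
MYB51: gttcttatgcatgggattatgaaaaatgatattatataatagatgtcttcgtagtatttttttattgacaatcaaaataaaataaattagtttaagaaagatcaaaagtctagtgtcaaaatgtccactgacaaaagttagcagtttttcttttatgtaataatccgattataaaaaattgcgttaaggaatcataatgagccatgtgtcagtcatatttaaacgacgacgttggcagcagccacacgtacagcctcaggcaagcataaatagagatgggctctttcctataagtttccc
MYB34: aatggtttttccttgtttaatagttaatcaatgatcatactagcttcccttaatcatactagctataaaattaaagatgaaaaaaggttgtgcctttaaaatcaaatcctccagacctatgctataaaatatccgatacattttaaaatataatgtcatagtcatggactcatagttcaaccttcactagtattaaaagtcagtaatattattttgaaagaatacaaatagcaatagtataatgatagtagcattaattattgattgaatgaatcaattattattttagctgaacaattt

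Of the 9 chain elongation genes, whose enzymes lengthen methionine before it enters the core pathway, 5 fell and none rose. *BCAT4*, for the aminotransferase that starts the cycle in the cytosol, went from 94.0 and 89.7 to 67.4 and 70.3 FPKM (log2 change -0.41, SE 0.04, adjusted p = 7.12e-05). *MAM1*, for the synthase that adds the carbon unit, went from 194.0 and 194.1 to 145.8 and 145.7 FPKM (log2 change -0.41, SE 0.02, adjusted p = 5.24e-06). Both genes were lower by similar shares, 25.0% and 24.9%. The isomerase small-subunit genes *IPMI1* and *IPMI2* fell by 0.24 and 0.15 on the log2 scale, and the dehydrogenase gene *IMD1* by 0.20. No fit that left out a library changed these 5 calls.

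The other elongation genes did not pass. *MAM3*, whose enzyme makes longer chains than that of *MAM1*, was at 48.6 and 51.7 FPKM in wild type and at 46.7 and 47.0 FPKM in libraries labelled trm4b-4 (log2 change -0.10, adjusted p = 0.0944). The ratio of *MAM1* to *MAM3* was 3.87 ± 0.168 in wild type and 3.11 ± 0.0164 in libraries labelled trm4b-4, and the libraries did not overlap. *BAT5*, a plastid transporter gene of the intermediates, had a log2 change of -0.05 (adjusted p = 0.362). *IIL1*, the isomerase large-subunit gene that also serves leucine synthesis, and *BCAT3*, for a plastid aminotransferase, were at 0.00 and -0.01 with overlapping libraries (adjusted p = 0.957 and 0.917).

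In the core pathway 5 of 17 genes rose and 8 fell. After median-of-ratios rescaling 2 rose and 9 fell. Only 1 rose without wild type replicate 1 or trm4b-4 replicate 2, and 2 without either of the others. The entry step is set by CYP79 enzymes, which turn an amino acid into its oxime. *CYP79F1*, for methionine-derived chains, fell from 106 and 103 to 81.5 and 77.6 FPKM (log2 change -0.39, SE 0.03, adjusted p = 6.87e-05). *CYP79B2*, for tryptophan, rose from 39.2 and 37.9 to 46.4 and 47.4 FPKM (log2 change 0.28, SE 0.04, adjusted p = 0.000817). The ratio of *CYP79F1* to *CYP79B2* was 2.71 ± 0.00874 in wild type and 1.70 ± 0.0861 in libraries labelled trm4b-4.

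Their partner genes did not pass the test. *CYP79F2* had a log2 change of -0.11 (adjusted p = 0.159). *CYP79B3*, which encodes an enzyme for the same step as *CYP79B2*, was at 42.7 and 38.4 FPKM in wild type and at 36.3 and 37.3 FPKM in libraries labelled trm4b-4 (log2 change -0.13, adjusted p = 0.0865). *CYP79B3* was called lower without wild type replicate 2 (log2 change -0.21, adjusted p = 0.0201), after median-of-ratios rescaling (-0.17, 0.0449), with voom on recovered fragments (-0.14, 0.0136) and with GC and length trends removed (-0.17, 0.0353). The ratio of *CYP79B2* to *CYP79B3* was 0.953 ± 0.0499 in wild type and 1.27 ± 0.00529 in libraries labelled trm4b-4. The coding sequences of *CYP79F1* and *CYP79F2* are 91.9% identical, with an identical run of 100 bases, and how reads that match both were counted is not given in the sources used here. Their separate values are therefore uncertain.

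The next oxidation is made by CYP83A1 for aliphatic and CYP83B1 for indole oximes. *CYP83A1* fell from 177 and 171 to 149 and 146 FPKM (log2 change -0.23, SE 0.03, adjusted p = 0.00036). *CYP83B1* was at 106.3 and 106.2 FPKM and at 113.6 and 113.2 FPKM (log2 change 0.09, adjusted p = 0.0237). No fit that left out a library kept its call (adjusted p = 0.0908 and 0.0945 without wild type replicates 1 and 2, 0.0808 and 0.0673 without trm4b-4 replicates 1 and 2). With median-of-ratios rescaling the log2 change was 0.06 (adjusted p = 0.103).

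Glutathione transferases are thought to add the sulfur donor. *GSTF11*, of the aliphatic branch, fell from 23.6 and 23.5 to 16.9 and 16.4 FPKM (log2 change -0.48, SE 0.05, adjusted p = 0.000151), the largest fall of the branch. *GSTF10*, of the indole branch, fell from 418 and 411 to 346 and 331 FPKM (log2 change -0.29, SE 0.03). *GSTU20* and *GSTF9* were lower by 7.12% and 5.22%. *GSTU20* did not pass in the fits without wild type replicate 1 (log2 change -0.09, adjusted p = 0.0656) and without trm4b-4 replicate 2 (-0.09, 0.0577), nor did *GSTF9* without trm4b-4 replicate 2 (-0.06, 0.0675).

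The later core genes went both ways. *SUR1*, for the carbon-sulfur lyase that both branches need, fell from 53.2 in each wild-type library to 45.5 and 47.8 FPKM (log2 change -0.19, adjusted p = 0.00578). *GGP1*, for the peptidase before it, had a log2 change of 0.08 (adjusted p = 0.0383). Without wild type replicates 1 and 2 its adjusted p was 0.114 and 0.137, and without trm4b-4 replicates 1 and 2 it was 0.059 and 0.159. The glucosyltransferase genes *UGT74B1* and AT2G31790 were at -0.07 and 0.03 and did not pass (adjusted p = 0.163 and 0.499).

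Sulfation genes, of the last core step, moved in different directions. *SOT16*, whose enzyme prefers indole substrates, fell from 49.5 and 48.7 to 39.7 and 40.3 FPKM (log2 change -0.29, SE 0.03, adjusted p = 0.00043). *SOT18*, for aliphatic substrates, was at 45.4 and 45.3 FPKM in wild type and at 49.0 and 51.2 FPKM in libraries labelled trm4b-4 (log2 change 0.14, adjusted p = 0.0181). *SOT17*, of the same kind, had a log2 change of 0.17 (adjusted p = 0.0337). The call of *SOT18* was lost without wild type replicate 1 (adjusted p = 0.0707), wild type replicate 2 (0.0763) or trm4b-4 replicate 2 (0.0942). That of *SOT17* was lost without wild type replicate 1 (0.183), trm4b-4 replicate 1 (0.0528) or trm4b-4 replicate 2 (0.129).

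Short motifs were counted in the 300 bases upstream of each annotated start, on both strands. They were the G-box CACGTG, bound by MYC-type factors that work with these MYB proteins, and 3 AC elements of R2R3-MYB factors. AC element I reads ACCTACC, element II is the sequence ACCAACC, and the last of them, element III, is spelled ACCTAAC. None of these motifs contains another. Of 27443 protein-coding promoters, 7.09% hold the G-box and 7.16% any AC element. Among the 27 aliphatic genes 9 windows (33.3%) hold an AC element, against 1 of 17 indole windows (5.88%) and 2 of 11 shared windows (18.2%). Of these aliphatic windows, those of *IPMI2*, *CYP79F2* and *SOT17* overlap another annotated gene, and whether the match lies within that gene was not examined. By response, the AC element was present in 6 of 23 genes that fell, 1 of 9 that rose and 5 of 20 that did not pass. A match is a sequence description and shows no binding.

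A G-box was found in 3 windows, those of *CYP83A1* and *SUR1*, which fell, and of *IIL1*, which did not pass. Each of the 3 also holds an AC element, and both motifs are in capitals in the sequences (RefSeq, TAIR10.1, gene strand, 5′ to 3′). The windows lie at chr4:7992430-7992729 on the minus strand for *CYP83A1*, chr2:8880441-8880740 on the minus strand for *SUR1* and chr4:7807985-7808284 on the minus strand for *IIL1*.
CYP83A1: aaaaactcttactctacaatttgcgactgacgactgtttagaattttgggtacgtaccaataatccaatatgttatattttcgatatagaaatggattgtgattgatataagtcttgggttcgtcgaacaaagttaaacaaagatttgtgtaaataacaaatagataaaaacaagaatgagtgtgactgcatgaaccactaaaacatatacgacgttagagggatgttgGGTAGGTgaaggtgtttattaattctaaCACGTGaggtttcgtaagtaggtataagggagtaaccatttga
SUR1: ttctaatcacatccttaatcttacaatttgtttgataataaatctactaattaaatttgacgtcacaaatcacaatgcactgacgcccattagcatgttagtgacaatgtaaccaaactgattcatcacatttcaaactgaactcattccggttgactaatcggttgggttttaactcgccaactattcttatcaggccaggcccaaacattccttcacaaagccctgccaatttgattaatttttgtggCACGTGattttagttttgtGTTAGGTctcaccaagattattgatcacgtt
IIL1: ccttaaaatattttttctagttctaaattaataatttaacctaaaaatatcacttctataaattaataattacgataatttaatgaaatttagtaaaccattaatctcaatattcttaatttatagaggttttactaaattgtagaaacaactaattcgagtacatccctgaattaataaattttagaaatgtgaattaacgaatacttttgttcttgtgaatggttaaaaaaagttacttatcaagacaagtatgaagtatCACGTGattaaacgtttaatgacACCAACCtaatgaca

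Side-chain genes of the aliphatic branch were mixed. The FMO GS-OX enzymes oxidise the methylthio side chain to methylsulfinyl. *FMO GS-OX1* fell from 15.7 and 15.5 to 11.0 and 12.4 FPKM (log2 change -0.39, SE 0.07, adjusted p = 0.00295). *FMO GS-OX4* rose from 16.3 and 18.1 to 21.0 and 22.1 FPKM (log2 change 0.31, SE 0.06, adjusted p = 0.00536). *FMO GS-OX2* was higher (log2 change 0.21, adjusted p = 0.0118) and *FMO GS-OX3* lower (-0.20, adjusted p = 0.03), and *FMO GS-OX5* did not pass (-0.11, adjusted p = 0.0936). The call of *FMO GS-OX2* was lost without wild type replicate 1 (adjusted p = 0.0524), wild type replicate 2 (0.0535) or trm4b-4 replicate 2 (0.0623). That of *FMO GS-OX3* was lost without the same libraries (0.119, 0.0795 and 0.136), and without trm4b-4 replicate 2 its log2 change was -0.12.

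*AOP2* and *AOP3* act on the oxidised side chain in other ecotypes, and Col-0 lacks a working AOP2. RefSeq lists its *AOP2* as a transcribed pseudogene, and its transcript was at 20.2 and 19.9 FPKM in wild type and at 19.2 and 21.7 FPKM in libraries labelled trm4b-4, with overlapping libraries. *AOP3* had 0 fragments in each of the 4 libraries, which allows up to 3 in a library by counting error alone.

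Of 5 tested side-chain genes of the indole branch 1 fell and none rose. CYP81F enzymes hydroxylate the indole ring and IGMT enzymes methylate the product. *IGMT1* was at 33.6 and 35.4 FPKM in wild type and at 31.4 and 30.8 FPKM in libraries labelled trm4b-4 (log2 change -0.15, adjusted p = 0.0312). That call was lost without wild type replicate 2 (-0.11, adjusted p = 0.184), trm4b-4 replicate 1 (-0.16, 0.0594) or trm4b-4 replicate 2 (-0.13, 0.104). The coding sequences of *IGMT1* and *IGMT2* are 92.5% identical, so their values are uncertain as well, and *IGMT2* was lower expressed, at 4.09 to 4.24 FPKM (log2 change -0.03, adjusted p = 0.827). *CYP81F2*, the best known for defence, was at 4.97 and 6.10 FPKM and at 4.34 and 4.38 FPKM (log2 change -0.28, adjusted p = 0.0696). It was called lower without wild type replicate 1 (-0.41, adjusted p = 0.0324). *CYP81F3* and *CYP81F4* had mean levels under 2 FPKM in both genotypes and did not pass (log2 changes 0.16 and 0.25, adjusted p = 0.338 and 0.266), and *CYP81F1*, with 6 to 12 fragments per library, was not tested.

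The plasma membrane importers GTR1 and GTR2 load glucosinolates into the phloem. *GTR1* fell from 44.2 and 44.4 to 35.7 and 34.3 FPKM (log2 change -0.33, SE 0.04, adjusted p = 0.000339). *GTR2* was at 33.0 and 31.3 FPKM in wild type and at 34.4 and 34.3 FPKM in libraries labelled trm4b-4 (log2 change 0.09, adjusted p = 0.12). The ratio of *GTR1* to *GTR2* was 1.38 ± 0.0549 in wild type and 1.02 ± 0.0273 in libraries labelled trm4b-4, so the excess of *GTR1* was nearly gone.

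In breakdown 5 of 8 genes fell and none rose. The largest change was in *TGG2* (AT5G25980), for 1 of the classic myrosinases, from 243 and 238 to 124 and 127 FPKM, or 1.92 times lower (log2 change -0.93, SE 0.02, adjusted p = 6.78e-08). *TGG1* (AT5G26000), for the more abundant myrosinase, fell less, from 1261 and 1254 to 1086 in each library labelled trm4b-4 (log2 change -0.21, SE 0.02, adjusted p = 3.02e-05). The ratio of *TGG2* to *TGG1* was 0.191 ± 0.00253 in wild type and 0.116 ± 0.00145 in libraries labelled trm4b-4. A ratio within a library does not depend on how the libraries were scaled. Summed over both genes, the level was 1504 and 1492 FPKM in wild type and 1211 and 1212 FPKM in libraries labelled trm4b-4.

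The atypical β-glucosidases of the indole branch were lower too. *PYK10*, for the main enzyme of the ER bodies of seedlings and roots, fell from 1680 and 1662 to 1386 and 1380 FPKM (log2 change -0.27, SE 0.02, adjusted p = 6.54e-06). *PEN2*, for a myrosinase of antifungal defence, was at 97.0 and 94.8 FPKM in wild type and at 89.2 and 87.4 FPKM in libraries labelled trm4b-4 (log2 change -0.12, adjusted p = 0.015). *PEN2* did not pass in the fits that left out wild type replicate 1 (adjusted p = 0.093) and trm4b-4 replicate 2 (0.067).

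Transcripts for proteins that set the breakdown product were measured as well. *ESM1*, whose protein favours isothiocyanates, fell from 180 and 177 to 148 and 147 FPKM (log2 change -0.28, SE 0.02, adjusted p = 6.06e-05). None of the genes for nitrile formation passed. *NSP1* was at 371 and 383 FPKM in wild type and at 381 and 378 FPKM in libraries labelled trm4b-4, and *NSP5* and *ESP* had log2 changes of 0.02 and -0.12 (adjusted p = 0.766, 0.598 and 0.193). For *NSP1* and *NSP5* the libraries of both genotypes overlapped.

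**Figure D3:**
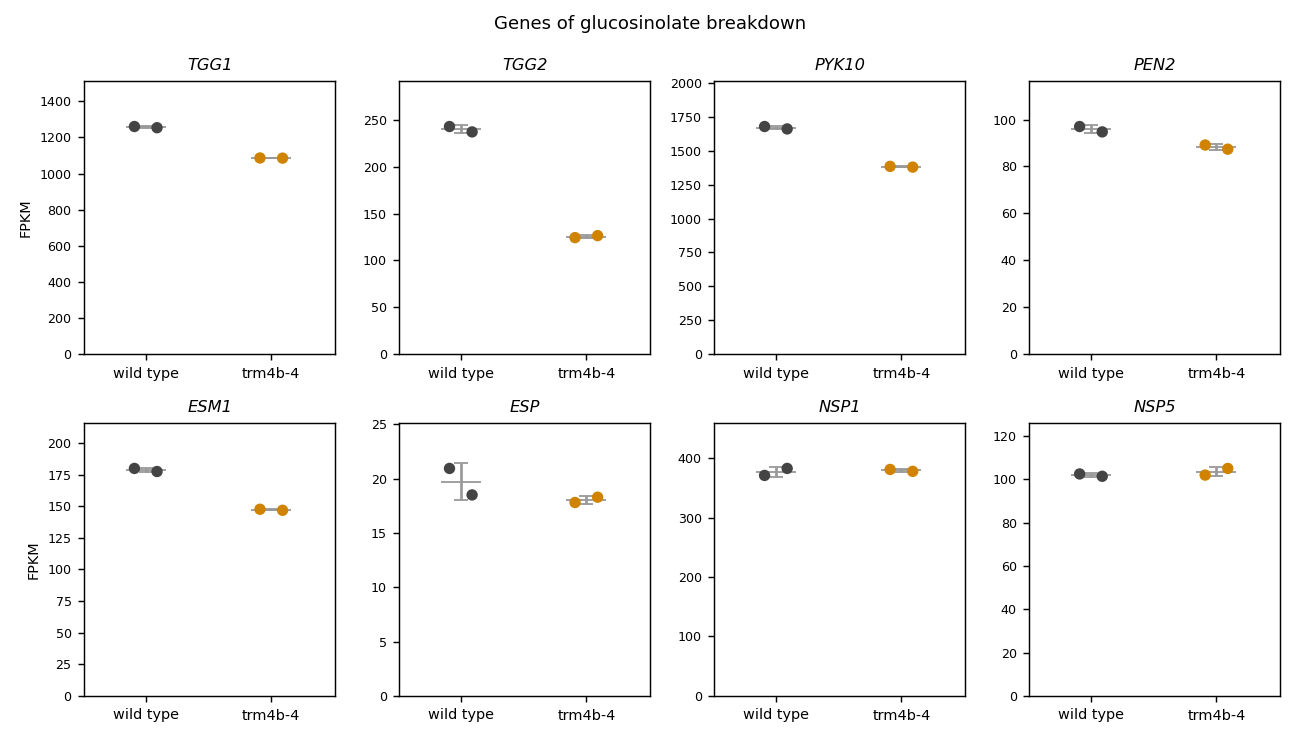
FPKM of the 8 breakdown genes in each library (points), with the mean and SD of the 2 libraries per genotype (grey) and axes that start at 0. *TGG2* is lower by 47.8% and *TGG1* by 13.6% in libraries labelled trm4b-4, while the libraries of *NSP1* and *NSP5* overlap.

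*TGG1* and *TGG2* lie within 20 kb of each other on chromosome 5, and their upstream windows are given because the genes fell by different amounts. The longest run they share is 21 bases, in capitals, and it begins 116 bases before the start of *TGG1* and 92 bases before that of *TGG2*. The windows lie at chr5:9082385-9082684 on the minus strand for *TGG1* and at chr5:9072408-9072707 on the plus strand for *TGG2* (RefSeq, TAIR10.1, gene strand, 5′ to 3′). Neither holds a G-box or an AC element.
TGG1: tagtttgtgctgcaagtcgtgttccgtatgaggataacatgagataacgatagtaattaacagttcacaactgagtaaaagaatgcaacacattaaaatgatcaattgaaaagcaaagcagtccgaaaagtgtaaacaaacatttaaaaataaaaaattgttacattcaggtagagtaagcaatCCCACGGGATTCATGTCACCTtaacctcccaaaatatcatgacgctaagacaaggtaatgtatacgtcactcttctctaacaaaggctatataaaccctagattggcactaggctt
TGG2: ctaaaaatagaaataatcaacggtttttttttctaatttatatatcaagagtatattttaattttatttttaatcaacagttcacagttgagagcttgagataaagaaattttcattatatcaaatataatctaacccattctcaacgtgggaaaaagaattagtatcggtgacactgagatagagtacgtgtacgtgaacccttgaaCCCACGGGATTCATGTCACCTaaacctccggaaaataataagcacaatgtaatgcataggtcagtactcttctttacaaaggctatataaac

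Many of these genes are close neighbours. Within 20 kb of each other, 25 of the 55 genes form 11 groups on the chromosomes. In 3 of the groups a gene that rose lies within that distance of a gene that fell. They are *MYB51* with *SOT17*, *SOT16* with *SOT18*, and the run of *FMO GS-OX2*, *FMO GS-OX3* and *FMO GS-OX4*. The calls of *SOT17*, *SOT18*, *FMO GS-OX2* and *FMO GS-OX3* were among those lost without single libraries, as given with each gene above. In *CYP79F1* with *CYP79F2* and in *MAM1* with *MAM3*, the more abundant gene fell and the other did not pass. In addition, 11 of the 55 genes, among them *BCAT4*, *IMD1*, *GSTF10*, *GSTF11*, *PYK10* and *GTR1*, overlap a gene on the opposite strand in TAIR10.1. The strand setting of the counting is not given in the sources used here.

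**Figure D4:**
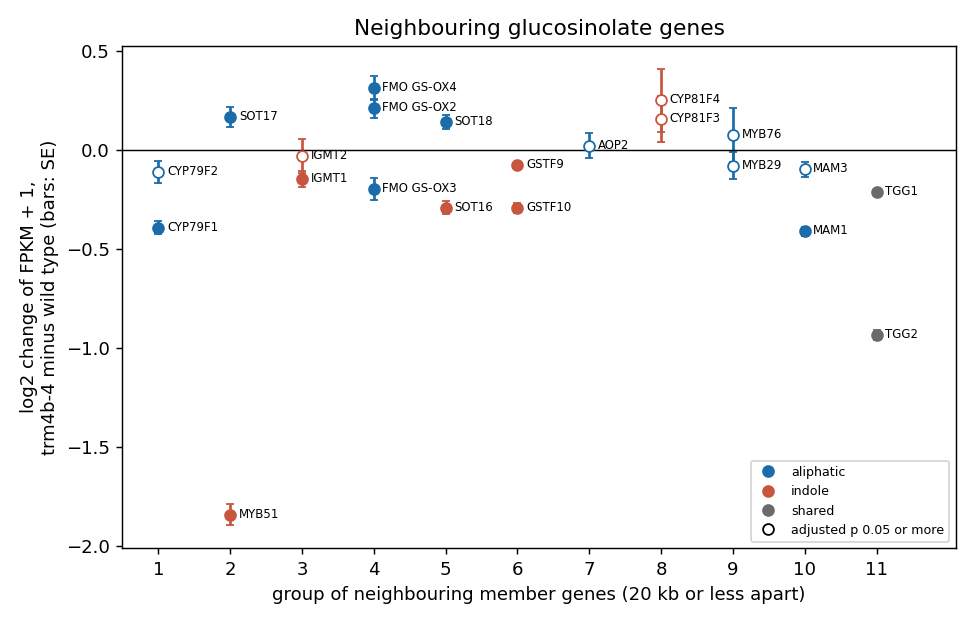
Log2 change of FPKM + 1 (trm4b-4 minus wild type, y axis, bars for the SE) for tested genes in the 11 groups of neighbours, numbered along the chromosomes, with open points for genes that did not pass. *MYB51* at -1.84 is grouped with *SOT17* at 0.17, and *TGG2* at -0.93 with *TGG1* at -0.21.

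Of 23 other genes of glucosinolate metabolism and its control, 19 were tested, 4 rose and 5 fell, with a median log2 change of 0.00. *IGMT4*, a close relative of *IGMT1*, fell from 335 and 329 to 236 and 237 FPKM (log2 change -0.49, SE 0.02). The coding sequence of *IGMT4* was not compared with that of *IGMT1*, so reads shared by both genes may leave these values uncertain. AT2G25450, annotated as an oxygenase, fell by 0.41 on the log2 scale. *IGMT5* and *MYC4*, for a MYC-type partner of the MYB factors, rose by 0.24 and 0.26. The other calls were named after their values were seen. Falls were those of the MYC-type factor gene *MYC2* (-0.61), the sulfate-donor kinase gene *APK1* (-0.29) and the exporter gene *PEN3* (-0.14). Rises were those of the isomerase small-subunit gene AT2G43090 (0.14) and of *GGP3* (0.20). *MYC3*, for a further MYC-type factor and also named after its value was seen, did not pass (0.01, limma adjusted p = 0.842). AT2G43090 did not pass when wild type replicate 1 was left out (0.11, adjusted p = 0.0766), nor did *GGP3* with wild type replicate 1 left out (adjusted p = 0.0662), wild type replicate 2 (0.165) or trm4b-4 replicate 1 (0.189). Their rises numbered 2 without wild type replicate 1.

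Markers of organs and cell types were read beside these changes, and their part in them was not tested. None of 6 tested root markers passed, and the list summed to 55.3 and 56.0 FPKM in wild type and 52.2 and 54.7 FPKM in libraries labelled trm4b-4. *CASP1* of that list, named after its value was seen, was called lower without trm4b-4 replicate 2 (-0.18, adjusted p = 0.041). It was also called lower with a filter of 5 FPKM (0.0438), median-of-ratios rescaling (0.025), GC and length trends removed (0.0165) and the replicate block (0.0482), and *MYB36*, also named after its value was seen, without the mean-variance trend (-0.21, 0.0452). *PLT1* and *WOX5* did not reach the filter. Leaf photosynthesis markers divided, 3 higher and 3 lower, with *LHCB2.2* at 0.51 and *CA1* at -0.35. With quantile normalization 1 was higher and 3 lower, and 2 were higher without a filter or without the trend. *LHCB1.3* and, named after its value was seen, *RBCS1A* lost their calls with quantile normalization, at log2 changes of 0 and 1.8e-15. That scaling gives a gene with the same rank in every library the same value, so it cannot test these genes. Of 5 guard cell and myrosin cell markers, the cells in which *TGG1* and *TGG2* are known to be active, 2 rose and none fell. The 2 were *MYB60* (0.35) and *KAT1* (0.23). The list summed to 56.8 and 61.2 FPKM in wild type and 69.4 and 67.9 FPKM in libraries labelled trm4b-4. After median-of-ratios rescaling or quantile normalization 1 rose, while removal of GC and length trends gave 3. None of the list passed without a filter, and 4 rose with voom on recovered fragments. No marker of that list was called without wild type replicate 1 or trm4b-4 replicate 1 (*MYB60* at 0.20 and 0.35, adjusted p = 0.114 and 0.0643). *FAMA* and *ICE1* are named after their values were seen. Without trm4b-4 replicate 2 the single call was *FAMA* (0.23, adjusted p = 0.0276), while *MYB60* (0.35, 0.0641) and *KAT1* (0.23, 0.093) were lost. Without wild type replicate 2 *KAT1* was lost (0.27, 0.0508) and *ICE1* was called (0.20, 0.049).

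Genes of touch and jasmonate response were mostly lower. Of 8, 7 fell and 1 rose, with a median log2 change of -2.09. Over all features tested, 15.1% were lower and 19.2% higher. *TCH4*, a touch-induced cell wall gene, went from 220 and 226 to 13.0 and 13.3 FPKM, and *TCH3*, a calmodulin-like gene, fell by 2.58 on the log2 scale. *JAZ1*, *JAZ7*, *JAZ9* and *CML38*, named after their values were seen, had log2 changes of -1.14, -2.19, -1.99 and -3.16. *JAZ7* passed the filter through wild type alone (6.04 and 5.78 FPKM, against 0.404 and 0.640 FPKM in libraries labelled trm4b-4). *LOX2*, a lipoxygenase gene of jasmonate synthesis, rose by 0.12. The small fall of *VSP2* (-0.10), named after its value was seen, lost its call without each library in turn (adjusted p = 0.0557 to 0.166). The part of this response in the changes of the glucosinolate genes was not tested.

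**Figure D5:**
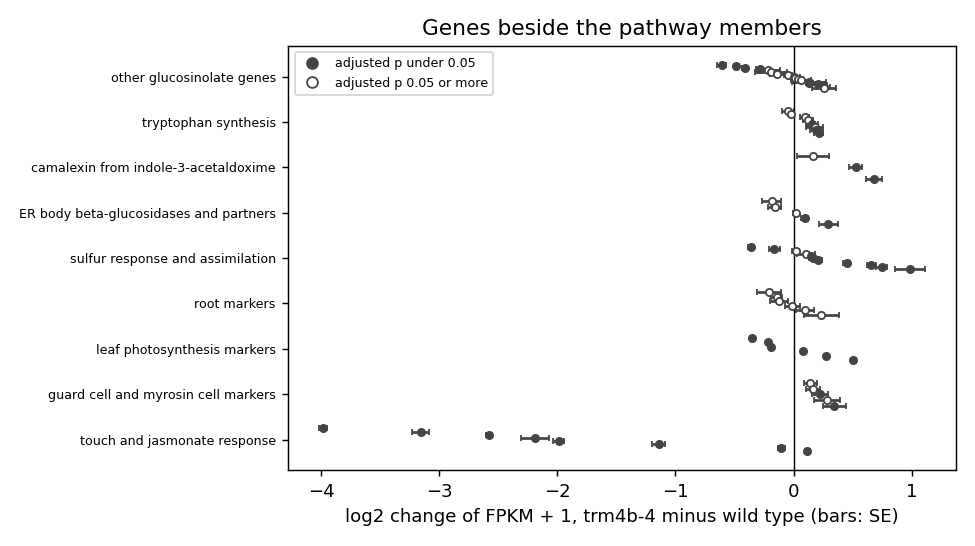
Log2 change of FPKM + 1 (trm4b-4 minus wild type, x axis, bars for the SE) for the tested genes of 9 lists beside the 55 genes, with open points for genes that did not pass. The touch and jasmonate list reaches -3.99, while the root markers stay between -0.21 and 0.24.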

How the data were processed

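Each library's deposited table holds 1 value per gene, taken as FPKM from the values themselves, since the headers name only the library. TopHat2 2.0.12, Cufflinks 2.1.1, HTSeq 0.6.1, Cuffdiff and the build TAIR10 are named, per the submitters' processing notes, with no role or order. Library totals were estimated from genes whose annotated length gave whole fragments. A length giving whole fragments (within 2e-06 plus a relative 3e-09) was then searched for each of 24892 features above 0. It was an annotated length for 3787, and for the others wholeness is no independent check and fragment numbers can be off by a whole factor. Recovered fragments summed to 101.47% to 101.56% of the totals.

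Features at 1 FPKM or more in at least 2 libraries were tested with limma 3.58.1 in R 4.3.3 on log2(FPKM + 1), which understates changes of low genes, with an empirical Bayes mean-variance trend, no covariate and two-sided Benjamini-Hochberg adjustment over 19027 features. Counts of calls use an adjusted p under 0.05. The procedure was tested on simulated data. Names, positions, coding sequences and upstream windows are RefSeq's for TAIR10.1, matched by locus for 55 of 55 genes, and genes without a listed name are given by locus.

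The genes, lists, motifs and tests were chosen with earlier results of these data known. Any of the 55 genes may be named, and from each of 9 further lists up to 2 genes per direction with the smallest adjusted p. Alternatives changed the pseudocount, filter, scaling, trend, model, threshold, replicate term and each library in turn. The floor given for *AOP3* covers counting error only, while each SE comes from the limma fit and reflects library-to-library spread.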

Additional observations from a re-analysis of the deposited data

How the results depend on the processing

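Over 13 alternatives, each of which tested the 32 called genes, 16 of the 23 falls and 4 of the 9 rises were called under every alternative, and no called gene changed sign. The 4 rises were those of *MYB28*, *MYB34*, *CYP79B2* and *FMO GS-OX4*. Leaving out a library gave 4 to 6 higher and 18 to 22 lower genes, 2 to 4 and 9 to 11 in the aliphatic branch, and 2 and 4 to 7 in the indole branch. Branch medians ran from -0.112 to -0.0826 (aliphatic) and from -0.115 to -0.0819 (indole), with the indole value nearest 0 without wild type replicate 1. Without the mean-variance trend 5 genes were higher, 3 of them aliphatic, and 4 indole genes were lower, as with quantile normalization. Against a fold of 1.5, 1 gene was higher and 2 lower. These were 0 and 0 in the aliphatic and 1 and 1 in the indole branch, against 120 and 332 of all features. The aliphatic median was -0.134 after median-of-ratios rescaling, and the indole median -0.150, -0.0774 without a filter and -0.0665 with quantile normalization.

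Without the trend 11 calls were lost in all (*IPMI2*, *SUR1*, *CYP83B1*, *SOT17*, *SOT18*, *FMO GS-OX3*, *GGP1*, *GSTF9*, *GSTU20*, *IGMT1* and *PEN2*, adjusted p = 0.0551 to 0.251). Quantile normalization ended the calls of *GSTF9*, *IGMT1* and *PEN2* (adjusted p = 0.0533, 0.0568 and 0.134). After median-of-ratios rescaling *MAM3*, *CYP79B3* and *FMO GS-OX5* were called lower (adjusted p = 0.0381, 0.0449 and 0.0437). The same rescaling ended the rises of *CYP83B1*, *SOT17* and *GGP1* (adjusted p = 0.103, 0.0699 and 0.19), and gave 6 higher and 26 lower genes in all.

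Some uncalled genes near 0 changed sign, and the cause was not tested. After median-of-ratios rescaling *IIL1* was at -0.0297, AT2G31790 at -4.3e-05, *AOP2* at -0.00773, *NSP1* at -0.0221 and *NSP5* at -0.0103. With GC and length trends removed *IIL1* was at -0.0257 and *NSP1* at -0.0154, and *BCAT3* was at 0.0355 with quantile normalization. Leaving out 1 library gave ranges of -0.168 to 0.0106 for *MYB29*, -0.0914 to 0.240 for *MYB76*, -0.0274 to 0.0168 for *BCAT3*, -0.0169 to 0.0214 for *IIL1*, -0.0606 to 0.106 for *AOP2* and -0.0126 to 0.0323 for *NSP1*.

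The replicate numbers share no stated source, and same-numbered libraries did not deviate together (correlation of deviations from the genotype means -0.0434). With the replicate number as a block, 9 genes were higher and 23 lower, and 3768 and 3001 of all features. Precision is limited by 2 libraries per genotype and, for *MYB122*, *CYP81F1* and *AOP3*, by depth.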

Other observations

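Other indole routes were measured too. Of 8 genes of tryptophan synthesis 3 (37.5%) rose and none fell, against 34.3% of all features called in either direction, with a median log2 change of 0.14. The 3 were *TSA1* (0.21, limma adjusted p = 0.00573), *ASB1* (0.19, 0.0207) and, named after its value was seen, *ASA1* (0.16, 0.0253). After median-of-ratios rescaling 2 rose, and *ASA1* was not called (0.13, 0.0573). The count was 1, *TSA1*, without wild type replicate 1, wild type replicate 2 or trm4b-4 replicate 2. Without those libraries *ASB1* had an adjusted p of 0.0571, 0.104 and 0.0805, and *ASA1* one of 0.0628, 0.128 and 0.0729. Without trm4b-4 replicate 1 *ASA1* was lost as well (0.0787). Camalexin, a defence compound, is made from the same indole oxime that CYP79B2 and CYP79B3 release. Its genes *CYP71A13* and *CYP71A12* rose, from 6.20 and 6.60 to 10.9 and 10.8 FPKM and from 14.5 and 13.9 to 21.7 and 20.1 FPKM (log2 changes 0.68 and 0.53). *PAD3*, of the last step and named after its value was seen, was at 0.17 (adjusted p = 0.375). Among 5 genes of ER bodies, the compartment of PYK10, *BGLU21* (0.30) and *PBP1* (0.09) were called higher. *BGLU22* (-0.18, adjusted p = 0.122) and *NAI1* (-0.16, 0.0645), both named after their values were seen, did not pass. *NAI1* was called lower after median-of-ratios rescaling (-0.19, 0.0358) and with voom on recovered fragments (-0.17, 0.0371). *PBP1* was not called after median-of-ratios rescaling (0.06, 0.123) or quantile normalization (0.06, 0.129). Both *PBP1* and *BGLU21* lost their calls without a filter (adjusted p = 0.109 and 0.0647). Neither *BGLU21* nor *PBP1* was called without wild type replicate 1 (adjusted p = 0.0611 and 0.147) or trm4b-4 replicate 2 (0.132 and 0.126), and *BGLU21* was not called without wild type replicate 2 (0.105).

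Of 11 tested genes of sulfur limitation and assimilation, 7 rose and 2 fell, and 5 rose and 1 fell without the mean-variance trend. Over all features tested, 19.2% were higher and 15.1% lower. The 2 that did not pass, named after their values were seen, were AT1G78000 (0.02, limma adjusted p = 0.677) and *SLIM1* (0.11, 0.311). AT4G08620 of the same list, at 0.476 to 0.809 FPKM, was not tested. *SDI1*, which is known to hold back glucosinolate synthesis when sulfur is short, rose from 20.6 and 21.6 to 35.5 and 36.6 FPKM (log2 change 0.75, SE 0.05, adjusted p = 9.2e-06). *LSU2*, a marker of low sulfur, rose by 0.66. *APS1*, for the enzyme that activates sulfate, fell by 0.36 on the log2 scale, and AT1G04770 fell by 0.16. The call of AT1G04770 did not hold without wild type replicate 2 (-0.10, adjusted p = 0.178), trm4b-4 replicate 1 (-0.17, 0.0577) or trm4b-4 replicate 2 (-0.15, 0.0832), which left 1 fall. *BGLU28*, named after its value was seen, is among the 7 and passed the filter through the libraries labelled trm4b-4 alone (0.408 and 0.388 FPKM in wild type, 1.61 and 1.93 FPKM otherwise).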
